A study of Mus musculus with 12 samples.

Results

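A transient dip in RNA level was followed in 81 probes of a mouse embryonic stem cell line. Each probe is a 60-base sequence printed on the array, and each read lower 24 h after tetracycline (Tc) than both before Tc and at the end of the course. The cells were 2TS22C, an inducible Sox2 knockout line, cultured with the cytokine LIF. All groups carry that Sox2-KO genotype. The control group (0 h, Tet(-)) had no Tc, and the other groups (Tet(+)) were harvested 3, 6, 12, 24, 48, 72 or 96 h after Tc was given. The titles give this treatment, whereas the description field writes Tet(-) for every sample, and the titles and the series design were followed. The 0, 6, 24 and 72 h groups have 2 arrays each and the 3, 12, 48 and 96 h groups have 1 array each. Nothing in the labels ties the replicates to separate cultures, so a p-value covers no more than the scatter among these samples, and that scatter may be technical. All results come from 1 engineered line.

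Sox2 is a transcription factor of the SRY-box family that binds DNA together with Oct4 and keeps embryonic stem cells pluripotent. In mouse embryonic stem cells, loss of Sox2 is known to be followed by differentiation towards trophectoderm, the outer layer of the blastocyst. Genes that fall and then return during such a switch can be seen only in a time course, because a comparison of the first with the last time passes over them. The array files name a probe by its array ID alone, and gene names were not used here, so each probe below is given by its ID and, where a result turns on it, by its sequence. For the same reason the level of Sox2 and the marker genes of pluripotent and differentiated cells were not analysed here. The RNA came from whole cultures, in which fewer cells of a type and less RNA per cell cannot be told apart.

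The probes were chosen by a rule on their measured values. On every array the sample RNA carried the dye Cy3 and a reference RNA pooled from 11 mouse cell lines carried Cy5. The level of a probe is its log2 ratio, that is log2 of the processed Cy3 signal over the processed Cy5 signal, so 1 unit is a doubling relative to the reference. A member lay at least 0.5 below the 0 h mean at 24 h, and at least 0.5 below the mean of the 72 and 96 h arrays. That end mean had to lie within 1.0 of the 0 h mean, and the 12 h array less than 0.7 below the 0 h mean. Cy3 had to be well above background on both 0 h arrays and Cy5 on all 12 arrays. Of 42006 distinct probes, 38670 met these background conditions and 81 met the whole rule, which is 0.209% of the eligible probes. The opposite shape, a peak at 24 h, was met by 151 probes under the mirrored limits, and 855 probes were low at 24 h by the same limit without the later rise. The values at 0, 12, 24, 72 and 96 h selected the members and are given as a description. Only the arrays of 3, 6 and 48 h were not used by the rule.

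Many members were high in the untreated stem cells relative to the reference. The 0 h values entered the rule, so this is a description. The mean log2 ratio at 0 h had a median of 1.05 over members and of -0.04 over eligible probes. It lay above 1 in 43 of the 81 members, against 12.6% of eligible probes. The members' 60-mers held a median of 41.7% G and C, against 45.0% over eligible probes.

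A 6-base word, ggatgc, was found in 11 members, which are shown because they share this word and, in 9 of them, ended above the starting level. Capitals mark the word, each line reads 5′ to 3′ as the array file gives the probe, and Z00058655-1 holds it at 2 places.
Z00018748-1: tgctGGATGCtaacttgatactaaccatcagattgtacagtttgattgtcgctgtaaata
Z00031972-1: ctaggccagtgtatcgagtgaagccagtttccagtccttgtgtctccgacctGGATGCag
Z00032277-1: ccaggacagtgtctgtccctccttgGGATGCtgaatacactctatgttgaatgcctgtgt
Z00032330-1: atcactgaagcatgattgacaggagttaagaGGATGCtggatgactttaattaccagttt
Z00037381-1: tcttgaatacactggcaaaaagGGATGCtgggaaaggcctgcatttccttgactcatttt
Z00056755-1: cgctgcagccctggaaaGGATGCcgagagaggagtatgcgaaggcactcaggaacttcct
Z00057960-1: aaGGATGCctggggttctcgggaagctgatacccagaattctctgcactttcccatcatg
Z00058655-1: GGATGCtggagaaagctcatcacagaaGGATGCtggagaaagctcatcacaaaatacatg
Z00059275-1: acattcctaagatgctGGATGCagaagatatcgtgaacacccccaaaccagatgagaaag
Z00065092-1: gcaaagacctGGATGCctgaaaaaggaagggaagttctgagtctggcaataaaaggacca
Z00067685-1: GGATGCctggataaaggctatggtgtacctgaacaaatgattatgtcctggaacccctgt

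Low values of the 81 members started at 12 h, were deepest at 24 h and had mostly returned by 72 h. Their median change from the 0 h mean was -0.01 on the 3 h array and -0.02 on both 6 h arrays. On the 12 h array it was -0.35, and 76 of the 81 members were already below their 0 h mean. The low point was at 24 h, with medians of -0.71 and -0.62 on the 2 arrays and all 81 members below 0 h on each, as the rule required of their mean. At 48 h the median was -0.26 and 66 members were still below 0 h. By 72 h the medians were 0.06 and 0.09, and at 96 h 0.19, where 57 members lay above 0 h. Over eligible probes the median stayed between -0.02 and 0.02 on all 12 arrays.

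**Figure D1:**
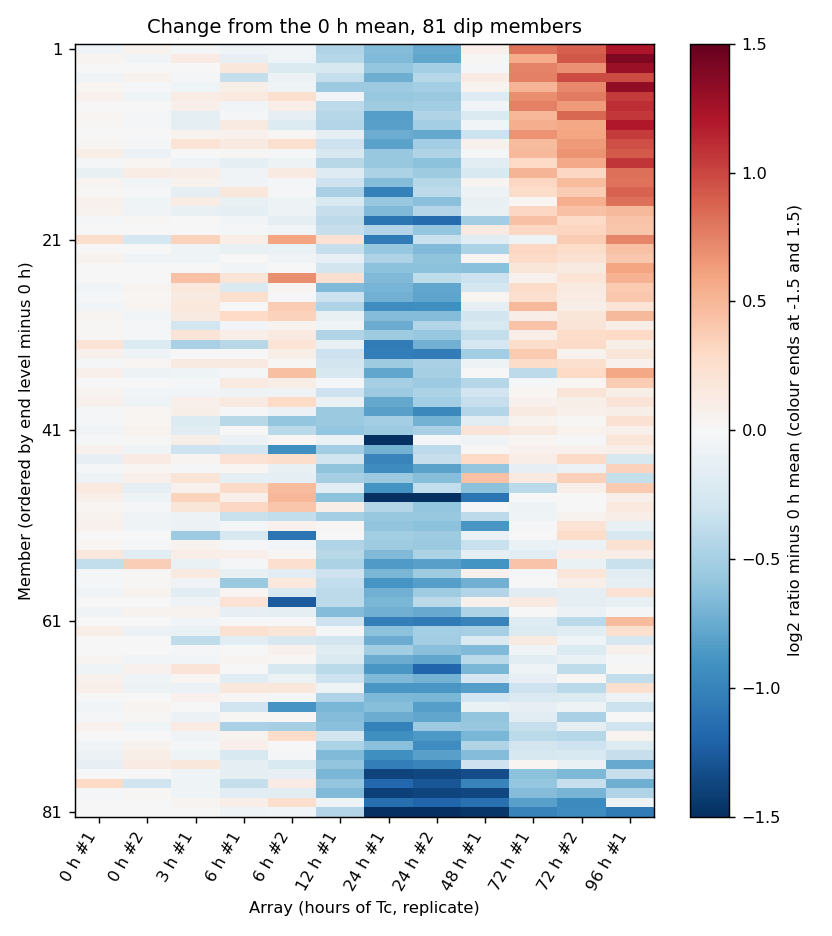
Change of the log2 ratio (sample over reference) from the 0 h mean, with 1 row for each of the 81 members and 1 column for each of the 12 arrays, in hours of Tc. Rows are ordered by the mean of the 72 and 96 h arrays minus 0 h, and colour ends at -1.5 and 1.5. Blue starts on the 12 h array, is deepest on both 24 h arrays and fades by 72 h, and most of the upper 24 rows turn red at 72 and 96 h.

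The mean change at 24 h had a median of -0.65 over members, with quartiles of -0.84 and -0.56. Just inside the limit of -0.5 was Z00025337-1 at -0.50350, and just outside was Z00063325-1 at -0.49995, which differ by far less than the spread between replicate arrays. On the second limit, 24 h against the end, Z00049973-1 lay just inside at -0.50425 and Z00013179-1 just outside at -0.49453. The members' median SD between replicate arrays was 0.06 at 0, 6 and 24 h and 0.09 at 72 h, against 0.05 over eligible probes at each of these times. The number of members rose from 81 to 194 with a limit of -0.4 and fell to 42 with -0.6. It was 132 without the second 24 h array, 73 of them among the 81.

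The 24 h arrays lay below both 0 h arrays and below all 72 and 96 h arrays in 80 of the 81 members, against 6.47% of the 38670 eligible probes, and the exception was Z00047549-1. In limma's fit of all 8 times, on background-corrected and loess-normalised log2 ratios with Benjamini-Hochberg adjustment over all probes, 75 of 80 members were called lower at 24 h than at 0 h. The same call was made for 7.49% of all probes tested. At 24 h against the mean of 72 and 96 h, 75 of 80 members were called lower, against 18.1% of all probes. The rule used these same differences, so the counts describe the choice and nothing is read from them. The member without a fitted value at 24 h was Z00031972-1, whose spots carried an outlier flag on both 24 h arrays and were dropped by the fit.

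Most members were already lower at 12 h. That time has 1 array, so an onset by 12 h and a shift of that array cannot be told apart. The 12 h array was below every array of 0, 3 and 6 h in 63 of the 81 members, and the same held for 17.9% of eligible probes. The rule limited the 12 h value on the low side only. All arrays of 0 to 12 h had their image analysis run on 1 day, per the file headers, so this step lies inside that day. The arrays of 24 to 96 h were analysed on a second day. The return from 24 h to 72 and 96 h lies inside the second day, whereas for 24 h against 0 h, and for 48 h against 3 and 6 h, the day of image analysis and the time of Tc cannot be told apart. Over all probes the median Cy3 signal over background was 97.1 to 120 units on the arrays of the first day and 122 to 221 on those of the second. The medians for Cy5, with the same reference RNA throughout, were 230 to 283 and 335 to 429 units, so both dyes differed between the days without overlap.

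At the times the rule did not use, many members were lower late than early. Between the mean of 3 and 6 h and 48 h, 37 of the 81 members fell and 2 rose in limma's fit at an adjusted p under 0.05. The 37 members make up 45.7% of the 81, while 11.5% of all probes tested were called lower in this comparison. The 2 members that rose are 2.47%, against 15.5% of all probes called higher. The median fitted change was -0.19 over members, with a range of -1.34 to 0.45 and a median standard error of 0.07, and it was 0.00 over all probes tested. In all 37 members that fell, the 48 h array lay below each of the 3 and 6 h arrays, and their median fitted change was -0.44. On the processed signals, the 48 h array lay below the 3 and 6 h arrays in 54 of 81 members, against 33.7% of eligible probes. For times with 1 array the fit takes the spread from the replicated times. The fitted values are shrunk for dim probes by an offset added to the signals.

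**Figure D2:**
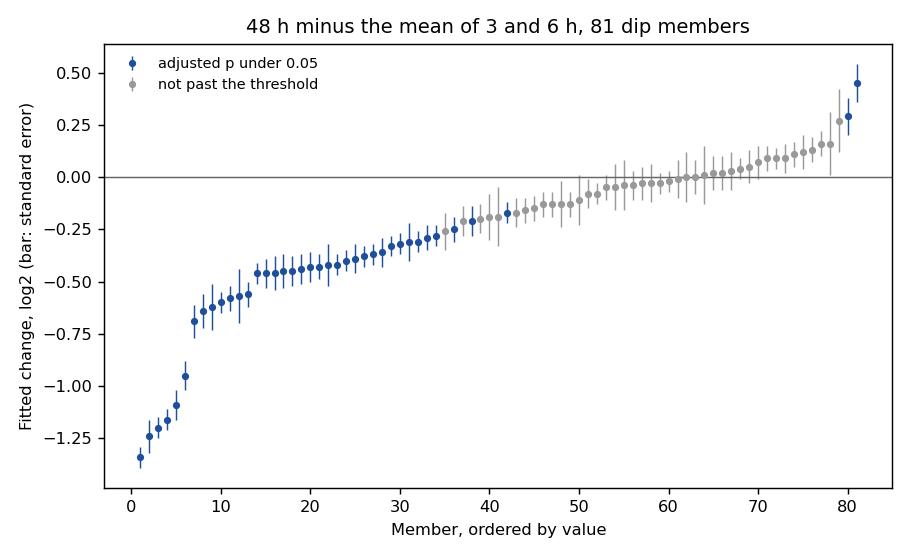
Fitted change from the mean of 3 and 6 h to 48 h, in log2 units, for the 81 members ordered by value. Bars are the standard error of the fit, blue points have an adjusted p under 0.05 and grey points do not. Of the blue points, 37 lie below 0 and 2 above it.

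No member was called between 6 and 3 h in limma's fit, against 0.139% of all probes, and the lowest adjusted p over members was 0.125. At an unadjusted p under 0.05 there were 15 members, or 18.5%, against 8.03% of all probes. The median fitted change over members was -0.04. On the 3 h array the quartiles of the members' change from 0 h were -0.07 and 0.10, and both times lie inside the first image analysis day.

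The largest falls at the unused times were seen for Z00006417-1 and Z00027126-1, the members that the naming rule picks on that side. Their probe sequences are given so that the transcripts can be traced.
Z00006417-1: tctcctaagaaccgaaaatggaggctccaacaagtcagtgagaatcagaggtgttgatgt
Z00027126-1: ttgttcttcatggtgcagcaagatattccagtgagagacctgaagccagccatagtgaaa

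For Z00006417-1 the log2 ratio was 2.58 and 2.56 before Tc, 2.56 after 3 h, 2.50 and 2.53 after 6 h, 2.13 after 12 h, 1.05 and 1.06 after 24 h, 1.11 after 48 h, 1.57 and 1.64 after 72 h and 1.52 after 96 h. The early arrays lay within 0.1 of each other, and the probe returned only in part. Its fitted change from 3 and 6 h to 48 h was -1.34 ± 0.05 (standard error), with an adjusted p of 6.58e-08 in limma.

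For Z00027126-1 the values were 2.89 and 2.73 before Tc, 3.14 after 3 h, 2.89 and 3.31 after 6 h, 2.19 after 12 h, 1.09 and 1.19 after 24 h, 1.71 after 48 h, 2.82 and 2.82 after 72 h and 2.89 after 96 h. This probe was back inside its 0 h range at 72 and 96 h, and at 48 h it was still below every early array. The fitted change from 3 and 6 h to 48 h was -1.24 ± 0.08 (adjusted p of 1.89e-06 in limma). It was also among the 2 deepest members by the smaller of its drops from 0 h and from the end.

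The other of the 2 deepest members, Z00059536-1, owed its place to 1 spot. On the first 24 h array its log2 ratio was -5.96, from a spot flagged as non-uniform and marked by the scanner software as not well above background in Cy3. Its mean signal over background, 566 units for Cy3 and 615 for Cy5, was nevertheless the highest of the probe's 12 arrays in both dyes. On the second 24 h array it was 0.13, inside the range of 0.07 to 0.35 covered by its other 10 arrays. With that spot left out it did not meet the rule. Leaving out flagged spots throughout reduced the members from 81 to 78, all of them among the 81, and the 3 members with flagged spots were this probe, Z00031972-1 and Z00036158-1. Z00031972-1 was flagged on both 24 h arrays and Z00036158-1 on the only 12 h array, so a value that the rule needs was missing. On its unflagged 24 h array Z00036158-1 read -1.56, against -0.90 on both 0 h arrays.

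The 2 members with the largest rise from 3 and 6 h to 48 h were Z00034256-1 and Z00012183-1. For Z00034256-1 the log2 ratio was 2.29 and 2.45 before Tc, 2.56 after 3 h, 2.23 and 2.24 after 6 h, 1.87 after 12 h, 1.81 and 1.73 after 24 h, 2.81 after 48 h, 2.51 and 2.73 after 72 h and 2.01 after 96 h. The 48 h array was its highest and the 96 h array lay below both 0 h arrays. Its fitted rise was 0.45 ± 0.09 (adjusted p of 0.00267 in limma), and with Cy3 alone it was 0.40 and no longer past the threshold.

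Z00012183-1 read 2.22 and 2.33 before Tc, 2.24 after 3 h, 1.92 and 2.19 after 6 h, 1.92 after 12 h, 1.54 and 1.85 after 24 h, 2.40 after 48 h, 3.03 and 3.25 after 72 h and 3.25 after 96 h. The arrays of 48 to 96 h all lay above every earlier array. The fitted rise to 48 h was 0.29 ± 0.09 (adjusted p of 0.0389 in limma), but the call was not stable. It was lost with normexp at an offset of 0, Agilent's processed signals and the series table, where the rise was 0.26, and with Cy3 alone, where it was 0.10. It was also lost without the first 0 h array (0.29), the second 0 h array (0.29) or the first 6 h array (0.26).

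The members differed in how far they had come back at 48 h. The share of the way from the 24 h level to the end level that was covered at 48 h had a median of 41.2% over members. It was under 25% in 15 members, between 25% and 75% in 50 and above 75% in 16. In the 15 slow members the median change from 0 h was -0.84 at 24 h and -0.82 at 48 h, and in the 16 fast members it was -0.62 at 24 h and 0.00 at 48 h. The recovery share is made from the 48 h level and from the levels at 24, 72 and 96 h that chose the members, so these medians describe the grouping. In 4 members the 48 h array lay below both 24 h arrays.

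By where they ended, 24 members finished more than 0.3 above 0 h, 52 within 0.3 of it and 5 more than 0.3 below. The 24 that ended higher had median changes of -0.34 after 12 h, -0.59 after 24 h, -0.06 after 48 h, 0.49 after 72 h and 0.94 after 96 h. Their median was higher at 96 h than at 72 h, but 96 h is 1 array and the values of both times formed this group. The 52 that ended near the start had medians of -0.35, -0.66, -0.33, 0.00 and 0.09 at the same times. In the 5 that ended lower the medians were -0.59, -1.38, -1.33, -0.67 and -0.46. Between 3 and 6 h and 48 h, all 5 of these fell in limma's fit, as did 4 of the 24 and 28 of the 52. Over all probes tested 11.5% were called lower. The groups were cut on the end level, which the rule used, so these counts describe the grouping.

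Among the 5 members that ended lower were Z00035148-1 and Z00057355-1, whose sequences share a stretch of 36 bases, shown in capitals, so that both may read the same transcript and they are not independent of each other.
Z00035148-1: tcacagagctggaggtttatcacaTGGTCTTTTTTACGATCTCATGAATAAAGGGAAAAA
Z00057355-1: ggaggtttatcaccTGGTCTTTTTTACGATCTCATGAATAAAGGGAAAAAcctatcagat

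For Z00035148-1 the log2 ratio was 0.31 and 0.34 before Tc, 0.26 after 3 h, 0.16 and 0.16 after 6 h, -0.34 after 12 h, -1.08 and -1.05 after 24 h, -1.04 after 48 h, -0.32 and -0.37 after 72 h and -0.13 after 96 h. Z00057355-1 read 0.13 and 0.15 before Tc, 0.09 after 3 h, 0.00 and 0.02 after 6 h, -0.54 after 12 h, -1.25 and -1.22 after 24 h, -1.19 after 48 h, -0.48 and -0.53 after 72 h and -0.20 after 96 h. Both probes held the 24 h level at 48 h and had regained part of the loss by 96 h, and the 24 and 48 h arrays lay below all others. The fitted changes from 3 and 6 h to 48 h were -1.16 ± 0.05 and -1.20 ± 0.05 (adjusted p of 1.41e-07 and 1.15e-07 in limma). A second pair of members, Z00024317-1 and Z00058380-1, shares 42 bases. Cy3 was saturated on both 0 h arrays and both 24 h arrays for this pair and for Z00031972-1, so no fold is given for these 3 members, and their place under the rule rests on saturated spots.

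In most members Cy3 alone was lower at 24 h than at 0 h and than at the end of the course. The rule chose the members by low ratios of Cy3 over Cy5 on these same arrays. The single-dye changes between these times therefore describe the choice, and which dye produced the dip was not tested. With each dye normalised alone between arrays, Cy3 was lower at 24 h than at 0 h in 78 of 80 members with a value, with a median change of -0.52. Cy5, the dye of the common reference pool, had a median change of -0.06 over members and of -0.01 over all probes tested. Against the end of the course, the median was -0.52 for Cy3 and 0.02 for Cy5, and Cy3 was lower in 77 of 80 members. In 6 members Cy5 rose by more than Cy3 fell between 0 and 24 h, and in 5 members this held between the end and 24 h. For the saturated pair Z00024317-1 and Z00058380-1, counted both times, a change of Cy3 could not be read, and without them it was 4 and 3 members. With the rule applied to Cy3 alone, 53 probes met it, of which 21 were among the 81.

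Low signals bear on a share of the members. The median Cy3 signal over background was 187 units over members at 0 h and 132 at 24 h, against 139 and 171 over eligible probes. A signal under 50 units on some array was found in 16 members for Cy3 and in 13 for Cy5, and 19 members had one in either dye. Over eligible probes such a signal was found in 31.8% for Cy3 and 11.6% for Cy5. Cy3 was well above background on all 12 arrays in 75 of the 81 members. The part of weak signals in the choice of members was not tested.

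The rule was then applied to 4 other forms of the signal and with each array of 0, 24, 72 and 96 h left out in turn. The 4 forms were normexp with loess at offsets of 50 and of 0, the series table and Cy3 alone. In all of these runs 11 members met the rule. They were picked after their values were seen, and are shown because the dip in them was met without any 1 of these arrays and under every signal tried.
Z00003145-1: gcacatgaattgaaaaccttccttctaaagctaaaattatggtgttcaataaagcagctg
Z00009226-1: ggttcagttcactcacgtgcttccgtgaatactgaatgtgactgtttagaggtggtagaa
Z00010475-1: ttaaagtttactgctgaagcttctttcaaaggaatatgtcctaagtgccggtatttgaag
Z00015996-1: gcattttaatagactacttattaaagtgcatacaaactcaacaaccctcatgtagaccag
Z00016525-1: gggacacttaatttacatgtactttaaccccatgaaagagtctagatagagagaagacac
Z00019479-1: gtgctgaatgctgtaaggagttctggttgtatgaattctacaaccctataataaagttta
Z00019642-1: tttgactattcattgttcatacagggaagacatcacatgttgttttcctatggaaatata
Z00045485-1: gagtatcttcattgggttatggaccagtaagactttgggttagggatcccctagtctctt
Z00055843-1: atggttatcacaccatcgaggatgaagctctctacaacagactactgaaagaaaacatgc
Z00070806-1: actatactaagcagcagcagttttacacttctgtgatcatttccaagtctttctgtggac

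The last of the 11 is Z00035148-1, given above. Over these 11 the change at 24 h ranged from -1.39 to -0.61 with a median of -0.88, and the change at 12 h from -0.67 to -0.11. In all 11 the 12 h array lay below every array of 0, 3 and 6 h, against 17.9% of eligible probes. The 24 h arrays lay below both 0 h and all 72 and 96 h arrays in all 11, against 6.47% of eligible probes. These same arrays picked the 11, so this count describes the choice and nothing is read from it. Cy3 alone changed by -1.43 to -0.54 from 0 to 24 h, and Cy5 alone by -0.30 to -0.01. Their lowest signal over background on any array was 84.9 units for Cy3 and 79.9 for Cy5. At the unused times, 10 of the 11 fell between 3 and 6 h and 48 h in limma's fit, against 11.5% of all probes tested. That fit used normexp at an offset of 50 and loess, 1 of the signals that picked the 11.

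Z00003145-1 is the first of them. Its log2 ratio was 1.69 and 1.72 before Tc, 1.70 after 3 h, 1.66 and 1.56 after 6 h, 1.31 after 12 h, 0.61 and 0.55 after 24 h, 1.18 after 48 h, 2.14 and 1.99 after 72 h and 2.13 after 96 h. It passed its starting level by 72 h, and its groups at 0, 24 and 72 h did not overlap. The fitted change from 3 and 6 h to 48 h was -0.45 ± 0.07 (adjusted p of 0.000499 in limma).

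Z00055843-1 read 1.22 and 1.10 before Tc, 1.16 after 3 h, 1.16 and 1.25 after 6 h, 0.85 after 12 h, 0.12 and 0.11 after 24 h, 0.64 after 48 h, 1.55 and 1.21 after 72 h and 1.34 after 96 h. For this probe 1 of the 72 h arrays lay inside the range of the 0, 3 and 6 h arrays. The other 72 h array and the 96 h array lay above that range, with a wide gap between the 72 h arrays. For Z00010475-1 the values were 0.81 and 0.72 before Tc, 0.72 after 3 h, 0.81 and 0.78 after 6 h, 0.55 after 12 h, 0.02 and -0.01 after 24 h, 0.36 after 48 h, 0.61 and 0.66 after 72 h and 0.74 after 96 h. Here the 72 h arrays were still below both 0 h arrays and the 96 h array was inside their range.

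In Z00015996-1 and Z00019479-1 the low level lasted to 48 h. Z00015996-1 read -0.21 and -0.23 before Tc, -0.26 after 3 h, -0.21 and -0.23 after 6 h, -0.53 after 12 h, -1.25 and -1.28 after 24 h, -1.22 after 48 h, -0.41 and -0.62 after 72 h and 0.25 after 96 h. Z00019479-1 read 1.05 and 1.05 before Tc, 1.04 after 3 h, 1.01 and 1.05 after 6 h, 0.78 after 12 h, 0.44 and 0.43 after 24 h, 0.42 after 48 h, 1.23 and 1.18 after 72 h and 1.64 after 96 h. Both had covered almost none of the way back at 48 h and stood above both 0 h arrays on the 96 h array. Their fitted changes from 3 and 6 h to 48 h were -0.95 ± 0.07 and -0.60 ± 0.05 (adjusted p of 4.68e-06 and 8.83e-06 in limma).

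Z00016525-1 was the only one of the 11 far below the reference at the start. It read -3.10 and -3.10 before Tc, -3.05 after 3 h, -3.03 and -3.08 after 6 h, -3.24 after 12 h, -3.84 and -3.87 after 24 h, -3.42 after 48 h, -2.43 and -2.51 after 72 h and -2.05 after 96 h. It ended more than 0.5 above every early array. Z00070806-1 was the 1 of the 11 that was not called at the unused times, with a fitted change of 0.07 ± 0.08 (adjusted p of 0.578 in limma). It read 1.21 and 1.24 before Tc, 1.36 after 3 h, 1.11 and 1.07 after 6 h, 0.91 after 12 h, 0.54 and 0.69 after 24 h, 1.29 after 48 h, 1.20 and 1.41 after 72 h and 1.07 after 96 h, so its 48 h array was already inside the early range. The remaining 3, Z00009226-1, Z00019642-1 and Z00045485-1, had fitted changes of -0.42, -0.37 and -0.43 to 48 h.

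**Figure D3:**
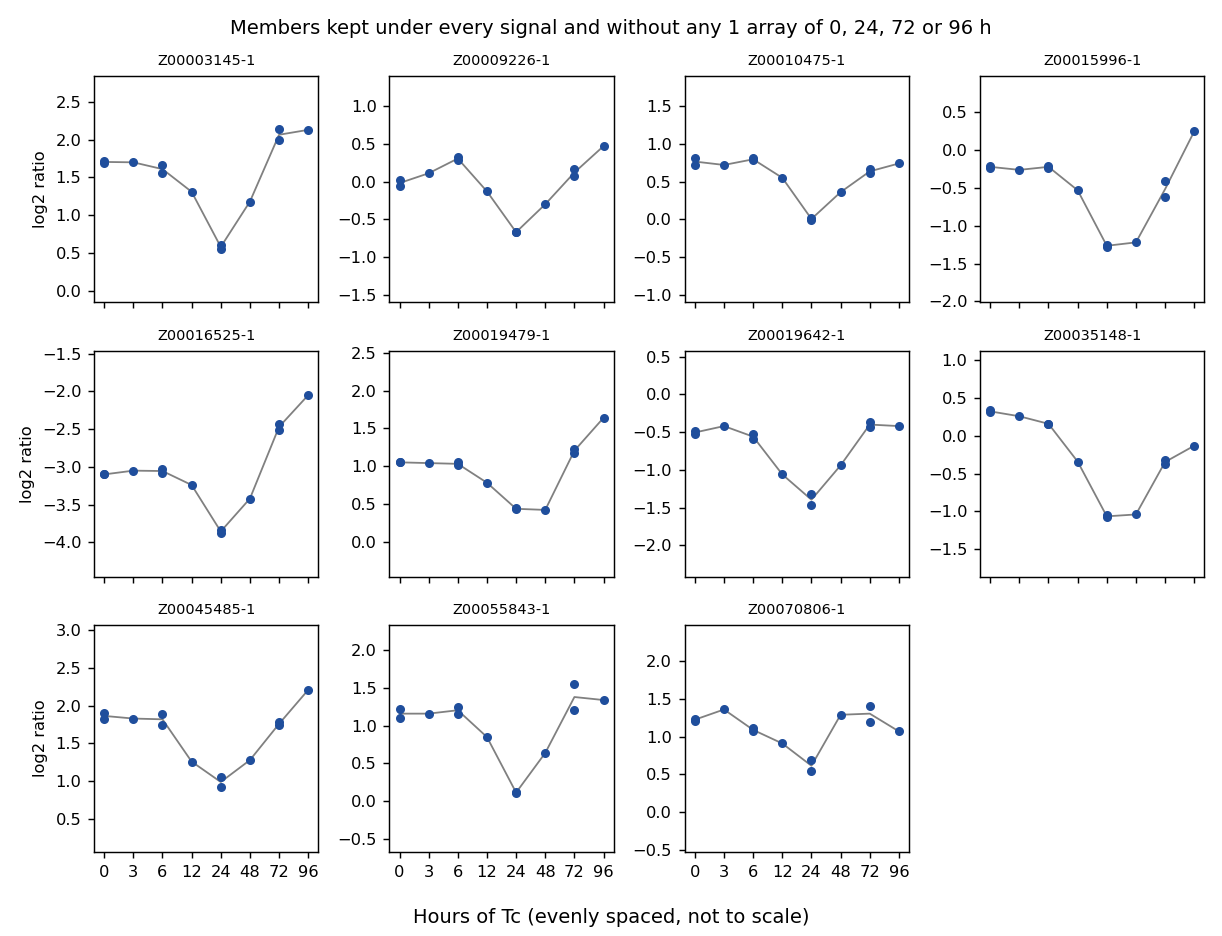
Log2 ratio (sample over reference) against hours of Tc for the 11 members that met the rule under every signal tried and without any 1 array of 0, 24, 72 or 96 h. Each point is 1 array, the grey line joins the means of each time, times are evenly spaced and each panel spans 3 log2 units. The 24 h points are low in every panel, and Z00015996-1, Z00019479-1 and Z00035148-1 keep the low level at 48 h.

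The word ggatgc shown in capitals above was the 6-base word held by the most members when all 4096 words were counted on the strand printed. It was found in 13.6% of members and in 514 of the 38670 eligible probes, or 1.33%. Its reverse complement, gcatcc, was in none of the 81 members and in 1.26% of eligible probes. The words aggttt and aataaa followed with 9 members each, and they were in 1.76% and 6.66% of eligible probes. The word was picked after the sequences were seen, out of many words, so its share is a description and a match is not a site. No stretch of 25 bases or more was shared among the 11 probes.

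Members with the word mostly ended above their starting level. Their median changes from 0 h were -0.39 after 12 h, -0.66 and -0.53 on the 24 h arrays, -0.05 after 48 h, 0.51 and 0.63 on the 72 h arrays and 0.97 after 96 h. These medians are over all 11 and include Z00031972-1. Its own change is not read, since Cy3 was saturated on its 0 and 24 h arrays. On the 96 h array 9 of the other 10 were above their 0 h mean, and 9 of the 11 were among the 24 members that ended higher, which makes 37.5% of that group. Of the 70 members without the word, 15 ended higher. Among all eligible probes that ended 0.3 to 1 above 0 h, whatever their course, 2.34% held the word. The word was picked from the members' sequences, and the group was cut on the end level, which the rule used. These shares are therefore a description, and a link between the word and the end level was not tested. The 503 eligible probes that hold the word and are no members had a median change within 0.05 of 0 at every time. Of all eligible holders 3.31% lay at or below -0.5 at 24 h, against 2.53% of all eligible probes. The holders counted here include the 11 members, which lie there by the rule, so no excess is read from these shares. Most probes with the word thus had no dip.

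Individual probes with the word differed in how they ended. Z00059275-1 read 1.55 and 1.46 before Tc, 1.63 after 3 h, 1.38 and 1.44 after 6 h, 1.08 after 12 h, 0.84 and 0.73 after 24 h, 1.52 after 48 h, 2.06 and 2.44 after 72 h and 2.90 after 96 h. Z00037381-1 read 0.85 and 0.84 before Tc, 0.92 after 3 h, 0.80 and 0.95 after 6 h, 0.45 after 12 h, 0.31 and 0.32 after 24 h, 0.80 after 48 h, 1.60 and 1.48 after 72 h and 1.95 after 96 h. Both were near their early level at 48 h and above every early array from 72 h on. Z00056755-1 read 2.37 and 1.77 before Tc, 2.00 after 3 h, 1.71 and 2.19 after 6 h, 1.48 after 12 h, 0.89 and 0.79 after 24 h, 1.07 after 48 h, 1.49 and 1.73 after 72 h and 1.34 after 96 h. It stayed below both 0 h arrays to the end and its 0 h arrays lay far apart. This probe was dim on all 12 arrays, with 20.4 to 54.4 units over background for Cy3 and 18.1 to 34.6 for Cy5. It was also the 1 of the 11 that fell from 3 and 6 h to 48 h in limma's fit, with a fitted change of -0.45 ± 0.08 (adjusted p of 0.0014).

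**Figure D4:**
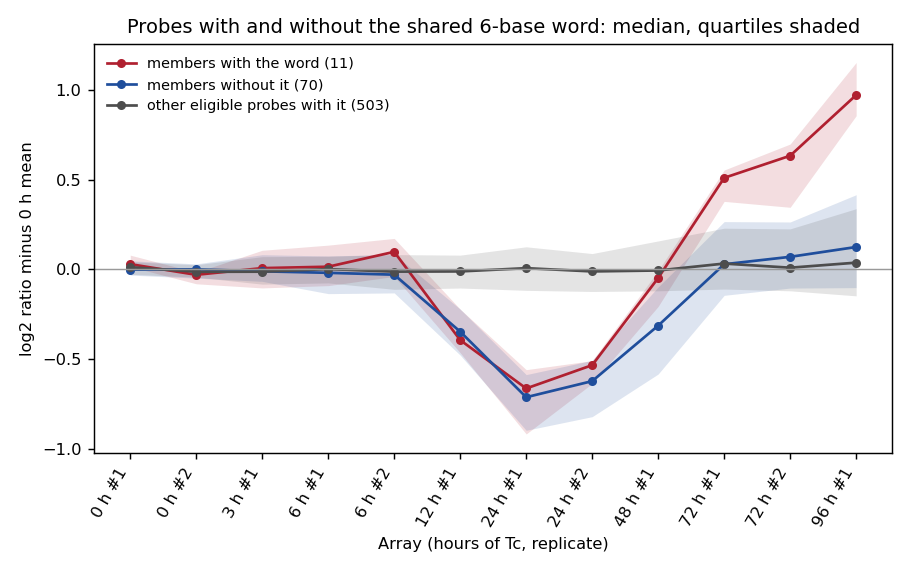
Median change of the log2 ratio from the 0 h mean on each of the 12 arrays, with quartiles shaded, for the 11 members with the word, the 70 members without it and the 503 other eligible probes that hold it. Both groups of members fall at 12 and 24 h, the 11 reach a median of 0.97 at 96 h, and the other holders stay within 0.05 of 0. The 11 include Z00031972-1, whose Cy3 was saturated at 0 and 24 h.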

How the data were processed

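RNA of 12 samples was read on 12 Agilent arrays with 2 dyes, sample in Cy3 and reference pool in Cy5, with no dye swap. Per the file headers, the authors made the scanner files with Feature Extraction 7.5.1: the deposited mean and background signals are raw intensity values, while background and dye are already corrected in the processed ones. The deposited series table holds log10 values, which matched log10 of processed Cy3 over Cy5 plus a constant per probe within 0.001 for 88.7% to 90% of probes per array. The origin of its other values is not stated in the labels or headers.

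Members were found on the deposited processed intensity values, averaged over spots of a probe. The members and lists were chosen with earlier results of these data known. Tests used mean signals corrected by normexp with an offset of 50, loess within arrays with control spots at weight 0, and flagged spots left out. A probe was kept when Cy3 was well above background on 2 arrays or more, which kept 41755 probes and removed 251. lmFit and eBayes of limma 3.58.1 in R 4.3.3 fitted the 8 times together, with 4 residual degrees of freedom, and Benjamini-Hochberg adjustment ran over all probes, with 0.05 as the limit. Each dye alone was normalised by quantiles. The number of arrays limits the precision. In a simulation of 41755 probes with 200 shifted by 0.5 log2 units, 100% were recovered for 48 h against 3 and 6 h and 99.5% for 6 h against 3 h. At 0.25 log2 units it was 7% and 0%. In the data 11.5% of probes were called lower and 15.5% higher at 48 h, a far larger share than was shifted here. The adjusted limit depends on that share, so these rates do not carry over to the comparison at 48 h. For 6 h against 3 h, 0.139% of probes were called in the data. The simulated noise was normal and independent between arrays, so the rates for this comparison hold for the simulated setting only.

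Named probes were the 2 deepest members, the 2 largest fitted rises and falls to 48 h, and those next to each limit; probes shown for their word, overlap, saturation, flags or stability were picked after their values were seen. Gene lists, cell type markers and the level of Sox2, planned for named probes, were not run. Alternatives were the background correction, processed signals, Cy3 alone, median centring, no filter, the replicate number as a block, the series table, other limits and each array left out. Same-numbered arrays did not pair: their deviations correlated at -0.04 to 0.16. Figures were drawn with matplotlib 3.10.9.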

Additional observations from a re-analysis of the deposited data

How the results depend on the processing

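The number of members was 194 with limits of -0.4, 42 with limits of -0.6, 149 without the conditions on background, 38 with normexp at an offset of 50 and loess (28 shared with the 81) and 53 with Cy3 alone (21 shared). Leaving out each array of 0, 24, 72 and 96 h in turn gave 76 to 132, the highest without the second 24 h array. The median fitted change of the members from 3 and 6 h to 48 h, -0.19 as reported, was -0.29 with normexp at an offset of 0, -0.30 with the processed signals, -0.31 with Cy3 alone and -0.30 with the series table. For Z00059536-1 that change reversed from -0.02 to 0.21 with Cy3 alone. The cause was not tested in any of these. Members called at 48 h numbered 32 to 41 over all alternatives, and 0 were called for 6 h against 3 h under every alternative run. With the replicate number as a block, 38, 0, 74 and 74 members were called for 48 h against 3 and 6 h, 6 h against 3 h, 24 h against 0 h and 24 h against the end, and the median change was -0.19, so the block changed no count by over 1.5 times. The comparison of 48 h with 3 and 6 h without the 3 h array, and that of 24 h with the end without the 96 h array, were not run, and without the 48 h array the former has no late sample. Dim probes limit the ratios, since 19 members had a signal under 50 units over background in some array.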
